A study of Homo sapiens with 18 samples.

Results

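The HOX genes are homeobox genes that encode transcription factors and lie in 4 clusters, HOXA, HOXB, HOXC and HOXD. Members were taken by gene symbol alone: HOX, a cluster letter and a position number, with or without an antisense suffix. This gave 30 of the 14884 genes that had a symbol on the array, of which 27 code for homeobox proteins and 3 are antisense transcripts. HOXA held 3 members, HOXB 10, HOXC 8 and HOXD 9. A gene was tested when at least 3 arrays read above 5.6 (log2 signal), the value below which 40% of all readings of genes with a symbol lie. This filter passed 26 members and 9686 genes in all.

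Within a cluster, HOX genes lie in the order in which they are switched on along the body axis of the embryo, with low position numbers toward the head and high numbers toward the tail. Polycomb proteins keep silent members repressed, trithorax proteins keep active members on, and PBX and MEIS proteins bind DNA together with HOX proteins. HOX genes at position 11 are needed for the first steps of kidney formation, and posterior HOXD genes pattern the limb, the gut and the urogenital tract.

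RNA was measured in 6 lines of HEK cells, an established human embryonic kidney cell line, on 18 Affymetrix arrays, 3 per line. Of these lines, 3 were wild type for ATXN1L, a protein that partners the transcriptional repressor CIC: the parental cells and 2 CRISPR control lines, N4 and N8. The other lines, A10, A30 and B21, were labelled as ATXN1L-KO and are called KO-labelled here. The labels give the same handling for every line, namely CRISPR treatment, puromycin selection and isolation of single colonies, so each edited line is 1 clone. Which part of ATXN1L was edited is not stated in the labels. All lines grew in DMEM with fetal bovine serum, and replicates are labelled as replicates 1 to 3 of a line.

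Array medians ran from 5.09 to 5.18 (log2). ATXN1L read 7.05 to 7.29 on the wild-type arrays and 7.20 to 7.61 on the KO-labelled arrays, and CIC read 6.75 to 6.99 and 6.70 to 6.96. Because the position of the edit is unknown here, the ATXN1L signal checks nothing about the labels. Of the 12 embryonic kidney genes with a symbol, 11 passed the filter, among them EYA1, SIX2, SALL1 and WT1, while PAX8 stayed at 4.64 to 5.14. Leukocyte genes other than CD8A did not pass the filter. The array number limits the precision of every value, and p-values from arrays cover the spread between replicates of a line, not that between clones.

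Promoters of the posterior HOXD members HOXD13, HOXD11 and HOXD10 are shown because these neighbouring genes were lower in A30 and their promoters were among the 12 that could be matched. Each runs from 250 bases before to 50 bases after the RefSeq transcript start on GRCh38.p14, on the plus strand of chromosome 2, at chr2:176092471-176092770, chr2:176107030-176107329 and chr2:176116528-176116827. Capitals mark the E-box CACGTG, a hexamer that reads the same on both strands and begins at base 120, 161 and 145 of the 300 bases.
HOXD13: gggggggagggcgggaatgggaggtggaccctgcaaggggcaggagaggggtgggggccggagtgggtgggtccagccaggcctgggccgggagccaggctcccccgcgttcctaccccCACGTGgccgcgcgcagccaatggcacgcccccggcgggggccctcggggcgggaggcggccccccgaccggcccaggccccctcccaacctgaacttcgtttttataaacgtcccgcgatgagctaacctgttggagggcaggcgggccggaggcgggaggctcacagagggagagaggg
HOXD11: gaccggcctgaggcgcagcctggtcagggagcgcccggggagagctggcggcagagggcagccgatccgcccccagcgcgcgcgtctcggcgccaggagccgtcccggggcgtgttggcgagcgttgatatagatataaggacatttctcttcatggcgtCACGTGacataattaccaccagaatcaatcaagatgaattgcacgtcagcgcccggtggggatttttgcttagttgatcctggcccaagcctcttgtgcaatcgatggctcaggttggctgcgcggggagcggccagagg
HOXD10: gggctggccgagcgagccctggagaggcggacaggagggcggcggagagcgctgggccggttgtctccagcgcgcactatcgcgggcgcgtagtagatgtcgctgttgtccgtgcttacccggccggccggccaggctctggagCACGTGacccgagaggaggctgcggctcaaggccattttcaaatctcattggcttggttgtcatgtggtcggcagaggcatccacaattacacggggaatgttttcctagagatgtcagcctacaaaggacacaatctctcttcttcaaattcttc

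The E-box was chosen after these sequences were read. It occurs in 5 of the 12 matched member promoters, namely HOXD13, HOXD11, HOXD10, HOXD3 and HOXD1, and in 7.26% of all 35116 promoters of this length. The octamers TGAATGAA and TGAATGGA, which CIC is known to bind, were searched on both strands and are in 0 of the 12 member promoters and in 1.65% and 1.03% of all promoters. The PBX-HOX composite TGATTGAT is in the promoters of HOXD11 and HOXA2 and in 0.484% of all promoters. TATAAA is in the HOXD13 promoter alone among these members and in 11.5% of all promoters. The CIC octamers begin with the same letters, TGAATG, and no match overlaps another in these member promoters. The promoters of HOXD13, HOXD11 and HOXD10 hold 24, 27 and 23 CpG, against a median of 21 over the 12 member promoters and 14 over all promoters. A match is a description of letters and no evidence of binding.

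HOX members varied between the 6 lines. With limma's F test over the lines, 18 of the 26 tested members passed at a Benjamini-Hochberg adjusted p under 0.05, where 43.5% of all tested genes did. The range of the 6 line means had a median of 0.42 over members and 0.33 over all tested genes (log2). By cluster, 3 of 3 HOXA, 7 of 9 HOXB, 4 of 7 HOXC and 4 of 7 HOXD members passed. The 3 HOXA members were HOXA2 and the antisense transcripts HOXA10-AS and HOXA11-AS, and no other HOXA coding gene had a symbol here. The largest ranges were those of HOXD13 (0.93), HOXA2 (0.74) and HOXC13 (0.63). HOXB4, HOXB13, HOXC10, HOXC12, HOXC13-AS, HOXD3, HOXD4 and HOXD8 did not pass, with ranges from 0.16 to 0.40.

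**Figure D1:**
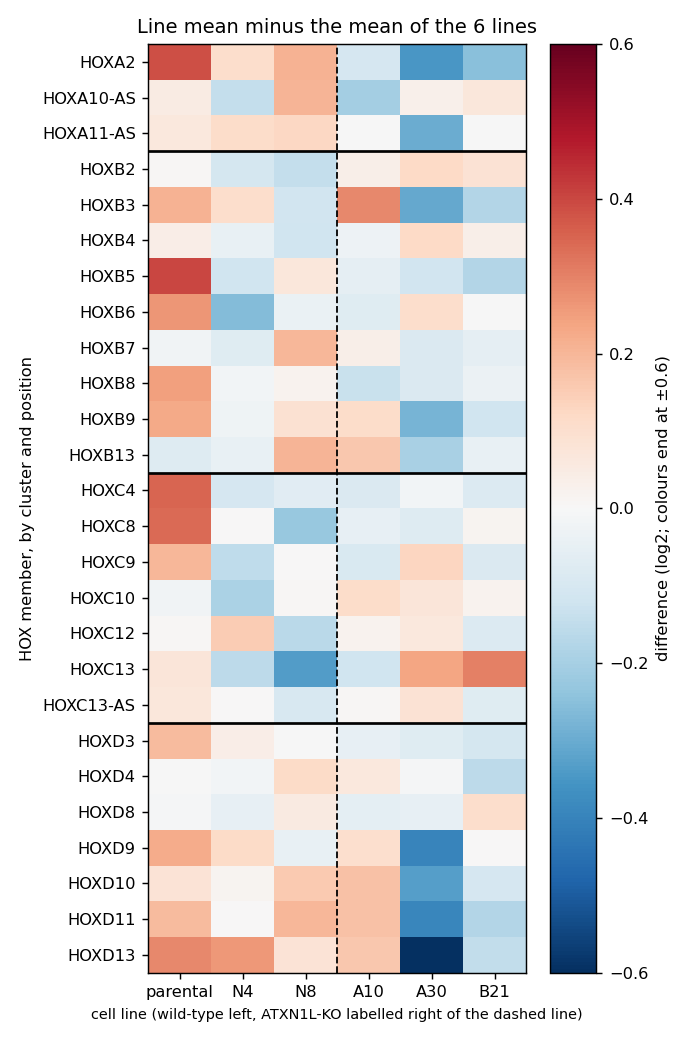
Heat map of the 26 tested HOX members (rows, by cluster and position) in the 6 lines (columns), coloured by the line mean minus the mean of the 6 lines (log2). The lower right shows A30 below the other lines in HOXD9, HOXD10, HOXD11 and HOXD13, and the first column shows the parental cells above the others in several HOXB and HOXC members.

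Members did not share a line pattern as a whole. The parental cells had the highest line mean in 11 of the 26 members and the lowest in 0, against 16.6% and 14.5% of all tested genes. A30 had the lowest in 10 members, against 22.6% of all tested genes, and in 4 of the 7 HOXD members. Over the 6 line means, pairs of members of 1 cluster had a median Pearson r of 0.279 (81 pairs) and pairs from different clusters 0.135 (244 pairs), while pairs of neighbouring tested genes along the chromosomes had 0.352. These points share the arrays and 6 lines, and the correlations are given as descriptions.

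The posterior HOXD genes had their lowest signal in A30. HOXD13, the gene at the end of the cluster and a regulator of digit and urogenital development, read 8.79, 8.84 and 8.84 in the parental cells, 8.66, 8.88 and 8.84 in N4 and 8.42, 8.71 and 8.71 in N8. In the KO-labelled lines it read 8.73, 8.67 and 8.68 in A10, 7.99, 7.87 and 7.82 in A30 and 8.42, 8.37 and 8.36 in B21. A30 lay below every other array, B21 lay at or below the lowest wild-type array, and A10 lay within the wild-type arrays.

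HOXD11, one of the position 11 genes of kidney formation, read 8.33, 8.15 and 8.04 in the parental cells, 8.03, 8.0 and 7.92 in N4 and 8.21, 8.18 and 8.16 in N8. It read 8.34, 8.06 and 8.08 in A10, 7.67, 7.54 and 7.57 in A30 and 7.91, 7.78 and 7.73 in B21. All A30 and B21 arrays lay below all wild-type arrays, and A30 did not overlap B21. Less RNA per cell and fewer cells with the RNA cannot be told apart in bulk samples.

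HOXD9 read 5.90, 5.61 and 5.92 in the parental cells, 5.96, 5.59 and 5.55 in N4 and 5.46, 5.54 and 5.63 in N8. Its values were 5.77, 5.58 and 5.72 in A10, 5.12, 5.25 and 5.2 in A30 and 5.73, 5.47 and 5.56 in B21. This gene stood near the filter: only 8 of 18 arrays exceeded 5.6, and none of A30 did. HOXD10, which stands between HOXD9 and HOXD11, had line means of 9.04 ± 0.05 (SD, n = 3 arrays) in the parental cells, 8.98 ± 0.06 in N4, 9.12 ± 0.18 in N8, 9.14 ± 0.02 in A10, 8.63 ± 0.05 in A30 and 8.86 ± 0.18 in B21. Its A30 arrays, at 8.59 to 8.68, lay below all wild-type arrays, while those of B21 overlapped them.

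**Figure D2:**
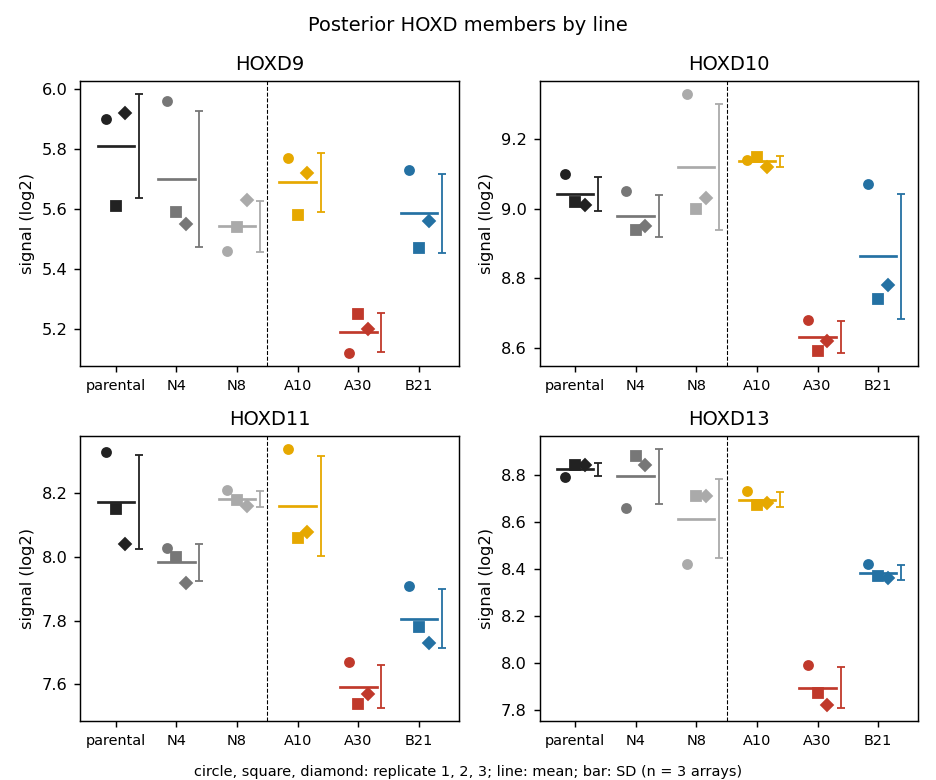
Signal (log2) of HOXD9, HOXD10, HOXD11 and HOXD13 on each array by line, with the line mean as a horizontal line and the SD (n = 3 arrays) as a bar; symbols give the replicate number. A30 is lowest in all 4 panels, and B21 lies between A30 and the wild-type lines for HOXD11 and HOXD13.

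Set against the mean of the 3 wild-type lines, 10 of the 26 members passed in A30, 8 lower and 2 higher. Of all tested genes 29.3% passed there, 16.3% lower and 12.9% higher. The median difference was −0.12 over members and 0.01 over all tested genes. HOXD13 fell by 0.85 ± 0.07 on the log2 scale (limma SE, adjusted p = 1.71e-07) and HOXD11 by 0.52 ± 0.07 (adjusted p = 4.53e-05). HOXD9 fell by 0.49 ± 0.09 (adjusted p = 0.000516) and HOXD10 by 0.42 ± 0.075 (adjusted p = 0.000483). In HOXD, then, all 4 tested members from position 9 to 13 passed, and HOXD3, HOXD4 and HOXD8, at −0.15, −0.04 and −0.05, did not. HOXD1 and HOXD12, at 4.88 to 5.53 and 4.82 to 5.52 over all arrays, were not tested. Within replicate 1 the HOXD13 difference in A30 was −0.63 and within replicates 2 and 3 it was −0.96, and for HOXD11 both were −0.52.

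The other members that fell in A30 lay in HOXA and HOXB. HOXA2, a gene of hindbrain and branchial arch patterning, fell by 0.58 ± 0.14 (adjusted p = 0.00515). The antisense transcript HOXA11-AS fell by 0.40 ± 0.085 (adjusted p = 0.00195), HOXB3 by 0.38 ± 0.09 (adjusted p = 0.00409) and HOXB9 by 0.37 ± 0.065 (adjusted p = 0.000354). HOXC13, a regulator of hair and nail keratins, rose by 0.38 ± 0.08 (adjusted p = 0.00162), and HOXB2, a hindbrain gene, by 0.20 ± 0.055 (adjusted p = 0.0111). No A30 array of HOXA2 or HOXA11-AS exceeded the filter value of 5.6. With each line centred on the running median of 41 neighbouring genes, HOXB2 differed by 0.12 (adjusted p = 0.141, in a range of 0.00665 to 0.141 over its alternatives).

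In B21, 6 of 26 members passed against the same wild-type lines, 4 lower and 2 higher, where 16% of all tested genes passed, 7.2% lower and 8.82% higher. HOXD13 fell by 0.36 ± 0.07 (adjusted p = 0.00153), HOXD11 by 0.31 ± 0.07 (adjusted p = 0.00702), HOXA2 by 0.48 ± 0.14 (adjusted p = 0.0279) and HOXB9 by 0.22 ± 0.065 (adjusted p = 0.0297). HOXC13 rose by 0.44 ± 0.08 (adjusted p = 0.00115) and HOXB2 by 0.17 ± 0.055 (adjusted p = 0.0483). HOXD10 and HOXD9 differed by −0.18 and −0.10 and did not pass (adjusted p = 0.107 and 0.512). A30 and B21 share their reference arrays, so their values are given side by side only.

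Several B21 calls ended when single arrays were left out, in part with hardly any change in the difference. The B21 count rose when a term for replicate number was added to the fit. Without replicate 3 of B21 the count was 3, and HOXD11 then differed by −0.27 (adjusted p = 0.0596, in a range of 0.000594 to 0.0596). HOXA2 did not pass without replicate 1 of B21 (−0.50, adjusted p = 0.0693) or replicate 2 (−0.35, adjusted p = 0.199), with a range of 0.00547 to 0.199 over its alternatives. The HOXB9 call ended without parental replicate 2, N4 replicate 3 or any single array of B21 (range 0.00542 to 0.109). Its difference was −0.218 with all arrays and between −0.223 and −0.213 with any single B21 array left out. The HOXB2 call ended in 22 of its 29 alternatives (range 0.0313 to 0.252). These included leaving out parental replicates 1 or 2, any N4 or A30 array, or N8 replicates 1 or 2. They also included leaving out A10 replicates 2 or 3, or B21 replicates 1 or 3. The HOXB2 difference stayed at 0.167 without these A10 or A30 arrays.

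A10 gave 0 of 26 calls with limma, where 8.4% of all tested genes passed. An unadjusted p under 0.05 was found for 7 of the 26 members and for 2225 of the 9686 tested genes. The smallest adjusted p among members was that of HOXA10-AS (−0.24 ± 0.07, adjusted p = 0.0558). Posterior HOXD members differed by 0.01 for HOXD9, 0.09 for HOXD10, 0.05 for HOXD11 and −0.05 for HOXD13. The count was 2 when A10 replicate 1 was left out, and also 2 with a term for replicate number in the fit. The count was 1 without parental replicate 1, parental replicate 2, A10 replicate 3 or B21 replicate 1.

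**Figure D3:**
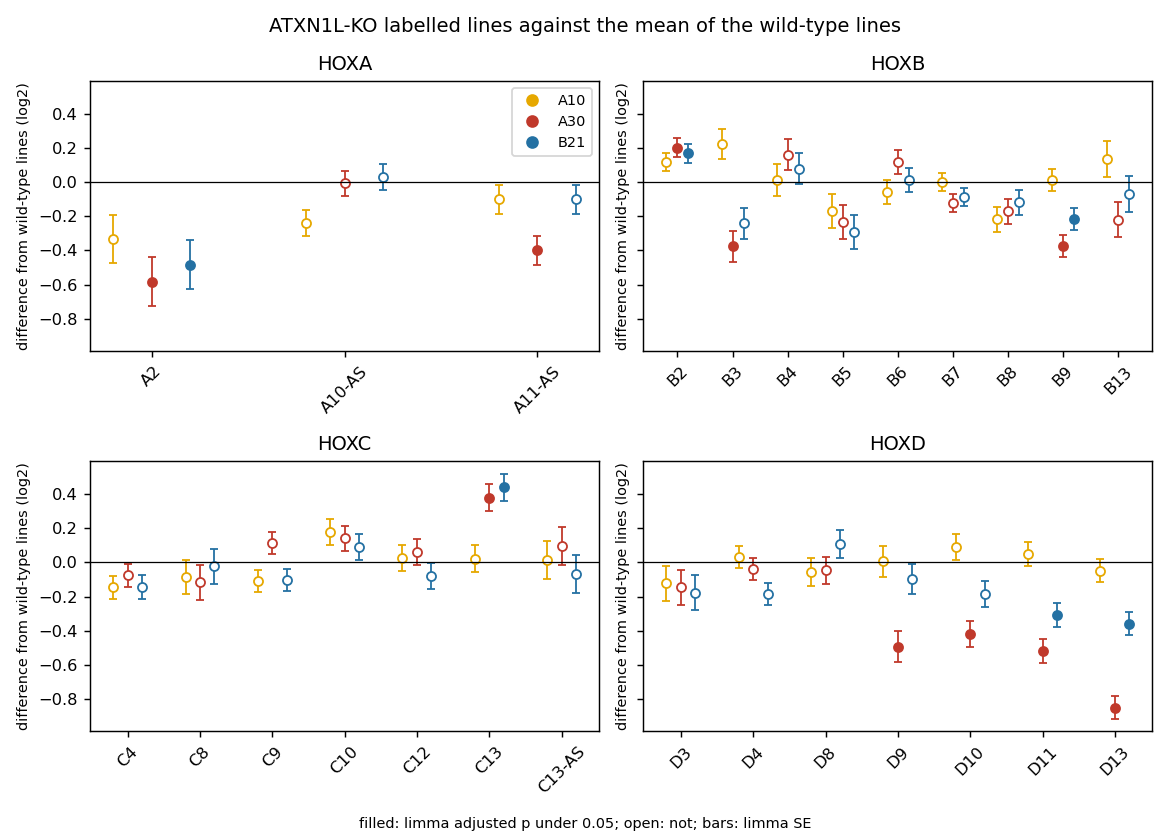
Difference of A10, A30 and B21 from the wild-type mean (log2, y axis) for each tested HOX member (x axis, by position) in the 4 clusters, with limma SE as bars and filled points for an adjusted p under 0.05. In HOXD the A30 points lie between −0.15 and −0.04 from HOXD3 to HOXD8 and between −0.85 and −0.42 from HOXD9 to HOXD13, and in HOXC only HOXC13 has filled points.

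Among the KO-labelled lines, the F test passed for 7 of 26 members (26.9%), close to the 25.8% of all tested genes. The median range was 0.20 over members and 0.21 over all tested genes. The 7 were HOXD13, HOXD11, HOXD10, HOXD9, HOXB3, HOXB9 and HOXC13. Between A30 and A10, 7 members differed (21.9% of all tested genes), HOXD13 by −0.80 ± 0.08 (adjusted p = 6.58e-06) and HOXD11 by −0.57 ± 0.09 (adjusted p = 0.000193). Between B21 and A10, 4 differed (13.1%), HOXC13 by 0.42, HOXB3 by −0.46, HOXD11 by −0.35 and HOXD13 by −0.31. Between B21 and A30, 2 differed (9.8%), with HOXD13 higher in B21 by 0.49 ± 0.08 (adjusted p = 0.00104) and HOXD9 higher by 0.40 ± 0.11 (adjusted p = 0.0293). HOXD10 and HOXD11 differed there by 0.23 and 0.21 and did not pass (adjusted p = 0.126 and 0.14). HOXD9, HOXD10, HOXD11 and HOXD13, grouped after their values were seen, had pairwise Pearson r between 0.79 and 0.98 over the 6 line means.

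Of the genes next to the HOXD cluster, 3 on its HOXD13 side were listed and tested. EVX2, the homeobox gene adjacent to HOXD13, differed by 0.25 ± 0.12 in A30, LNPK by 0.13 ± 0.06 and ATF2 by 0.04 ± 0.08, and none of the 3 passed. They were named after their values were seen, and no gene beyond HOXD1 was listed. The median of 41 neighbouring genes without HOX members differed by −0.05 in A30 and −0.05 in B21 at this cluster. Of the 12 tested genes flanking the 4 clusters, 6 passed the F test over the lines (43.5% of all tested genes). The largest fall in A30 among the named ones was in CBX5, which encodes a heterochromatin protein and lies beside HOXC, at 8.74, 8.61 and 8.55 in the parental, N4 and N8 lines and 8.58, 7.76 and 8.09 in A10, A30 and B21. TAX1BP1 and HIBADH, beside HOXA, differed in A30 by 0.38 and −0.40.

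**Figure D4:**
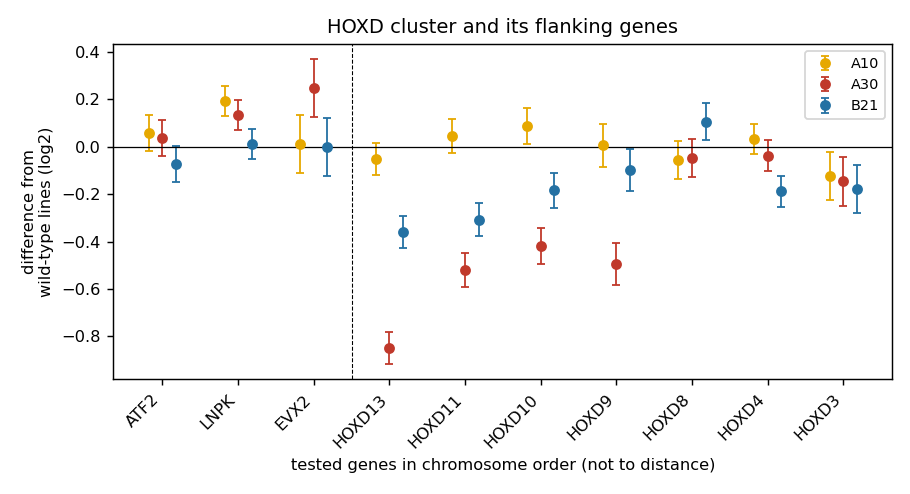
Difference from the wild-type mean (log2, y axis; bars are limma SE) for the tested HOXD members and 3 flanking genes in chromosome order, for A10, A30 and B21. In A30 the values of ATF2, LNPK and EVX2 are 0.04, 0.13 and 0.25, and those of HOXD13, HOXD11, HOXD10 and HOXD9 lie between −0.85 and −0.42.

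Between KO-labelled and wild-type lines, with the line as the unit (3 against 3), 0 of 26 members passed, and 0% of all tested genes did. At an unadjusted p under 0.05 there were 2 members and 937 genes. The median difference was −0.07 over members and 0.00 over all tested genes. In 4 members (HOXA2, HOXA11-AS, HOXB8 and HOXD3) all KO-labelled line means lay below all wild-type ones, and in 2 (HOXB2 and HOXC10) above, where 7.22% and 7.37% of all tested genes did so. Single arrays of KO-labelled and wild-type lines overlapped in each of these members. In HOXB8 the highest KO-labelled line mean was 5.607 and the lowest wild-type one 5.623. In HOXC10 the lowest KO-labelled line mean was 6.523 and the highest wild-type one 6.507. The smallest two-sided p of an exact permutation test with 3 lines against 3 is 0.1.

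HOXA2 had the smallest p. It read 6.16, 6.10 and 6.62 in the parental cells, 6.24, 5.76 and 6.04 in N4, 6.31, 6.07 and 5.96 in N8, 6.13, 5.46 and 5.83 in A10, 5.59, 5.48 and 5.6 in A30 and 5.69, 5.39 and 5.89 in B21. Line means were 6.01 to 6.29 in the wild-type and 5.56 to 5.81 in the KO-labelled lines and did not overlap, although single arrays did. The difference was −0.47 ± 0.10 (limma SE, adjusted p = 0.31). HOXD13 differed by −0.42 ± 0.18 (adjusted p = 0.509), with A10 inside the wild-type range.

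HOXA11-AS, transcribed from the strand opposite HOXA11, read 5.77, 5.87 and 5.84 in the parental cells, 5.92, 5.74 and 5.96 in N4, 5.99, 5.66 and 6.01 in N8, 5.73, 5.78 and 5.77 in A10, 5.54, 5.56 and 5.29 in A30 and 5.92, 5.59 and 5.77 in B21. Its A30 arrays were the lowest of all, and its difference between genotypes was −0.20 ± 0.10 (adjusted p = 0.561).

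The members with the smallest p among those above 0 were HOXC13 and HOXB2. HOXC13 read 6.98, 7.11 and 7.15 in the parental cells, 6.91, 6.88 and 6.77 in N4, 6.59, 6.71 and 6.73 in N8, 6.67, 6.91 and 7.09 in A10, 7.22, 7.15 and 7.37 in A30 and 7.20, 7.37 and 7.36 in B21. A30 and B21 reached or exceeded the highest wild-type array, and A10 spread over the wild-type range. HOXC13 differed by 0.28 ± 0.14 (adjusted p = 0.561) and HOXB2 by 0.16 ± 0.08 (adjusted p = 0.565). HOXC13-AS, whose RefSeq span overlaps that of HOXC13, ranged by 0.18 over the lines and did not pass the F test.

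HOXB3, a gene of hindbrain patterning, read 6.94, 6.64 and 6.60 in the parental cells, 6.81, 6.51 and 6.56 in N4, 6.63, 6.38 and 6.20 in N8, 6.71, 6.88 and 6.83 in A10, 6.17, 6.23 and 6.23 in A30 and 6.38, 6.31 and 6.34 in B21. It was high in A10 and low in A30, and the wild-type arrays covered most of the distance between them. The RefSeq span of HOXB3 contains HOXB4, and the span of HOXD3 overlaps that of HOXD4, so the probe sets of these pairs may not be fully separate.

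The wild-type lines differed from each other as well. The F test among them passed for 8 members, where 16.1% of all tested genes passed: HOXA10-AS, HOXB5, HOXB6, HOXB7, HOXC4, HOXC8, HOXC9 and HOXC13. Without parental replicate 3 the count was 5. No posterior HOXD member was among the 8. By cluster, 1 of 3 HOXA, 3 of 9 HOXB, 4 of 7 HOXC and 0 of 7 HOXD members passed.

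HOXB5 read 6.52, 6.23 and 6.45 in the parental cells, 5.85, 5.88 and 5.90 in N4, 5.98, 6.22 and 5.99 in N8, 6.08, 5.76 and 5.99 in A10, 5.78, 5.67 and 6.19 in A30 and 5.84, 5.74 and 5.88 in B21. All parental arrays were above all others. HOXB6, its neighbour, read 6.84, 6.57 and 6.62 in the parental cells, 6.15, 6.16 and 6.15 in N4, 6.21, 6.48 and 6.42 in N8, 6.27, 6.30 and 6.45 in A10, 6.48, 6.43 and 6.64 in A30 and 6.46, 6.36 and 6.41 in B21. N4 was lowest, and A30 overlapped the parental cells.

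HOXC8, a gene of the thoracic part of the axis, read 7.54, 7.36 and 7.55 in the parental cells, 7.07, 7.18 and 7.19 in N4, 6.67, 7.03 and 7.05 in N8, 6.86, 7.12 and 7.31 in A10, 6.95, 7.06 and 7.19 in A30 and 6.93, 7.28 and 7.27 in B21. The parental arrays stood above all others. HOXC4 had line means of 6.89 ± 0.09 (SD, n = 3 arrays) in the parental cells and 6.44 to 6.52 in the other 5 lines, and its lowest parental array, 6.80, lay above every array of the other lines.

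Against the parental cells, N4 had 2 members that passed, where 0.547% of all tested genes did and 0.341% were lower. HOXB6 fell by 0.52 ± 0.09 (adjusted p = 0.00938) and HOXC4 by 0.45 ± 0.08 (adjusted p = 0.0211). The count was 0 without parental replicate 1, N4 replicate 2 or N4 replicate 3, 1 without parental replicate 3, and 4 without A10 replicate 1, A30 replicate 2 or A30 replicate 3. In N8, 5 members passed, where 14.7% of all tested genes did, 7.67% higher and 7.03% lower. HOXC8 fell by 0.57 ± 0.125 (adjusted p = 0.00651), HOXC4 by 0.41 ± 0.08 (adjusted p = 0.00378), HOXC13 by 0.40 ± 0.10 (adjusted p = 0.0102) and HOXB6 by 0.31 ± 0.09 (adjusted p = 0.0261), and HOXB7 rose by 0.22 ± 0.065 (adjusted p = 0.0342). The N8 count was 3 without parental replicate 1. Against the mean of the parental cells and N4, HOXB6 differed in N8 by −0.045 (adjusted p = 0.738, in a range of 0.00987 to 0.738 over its alternatives) and HOXC4 by −0.19 (adjusted p = 0.0812, range 0.00153 to 0.0812). Centred on neighbouring genes, HOXB7 differed in N8 by 0.10 (adjusted p = 0.405, range 0.0065 to 0.405) and HOXC4 in N4 by −0.36 (adjusted p = 0.102, range 0.00885 to 0.137). HOXB6 did not pass there without parental replicate 1 or N8 replicate 1, nor HOXB7 without parental replicates 1 or 2 or N8 replicates 1 or 3. N4 and N8 share the parental arrays. N8 minus N4 passed for 3 members (13.9% of all tested genes): HOXB7 (0.27), HOXA10-AS (0.35) and HOXC12 (−0.32).

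After these values were seen, the parental cells were set against the mean of the other 5 lines. Of 26 members, 10 passed, all higher in the parental cells, where 9.62% of all tested genes passed and 5.44% were higher. The median difference was 0.16 over members and 0.00 over all tested genes, and 21 members were above 0. HOXC4 was higher by 0.42 ± 0.065 (adjusted p = 0.00113), HOXB5 by 0.48 ± 0.09 (adjusted p = 0.00423), HOXB6 by 0.32 ± 0.07 (adjusted p = 0.00785) and HOXC8 by 0.41 ± 0.10 (adjusted p = 0.0149). HOXB8, HOXB9 and HOXC9 were higher by 0.30, 0.27 and 0.24. HOXA2, HOXD13 and HOXD11, at 0.46, 0.35 and 0.23, also passed, in a reference that holds A30 and B21. The choice of this comparison followed the data, so its p-values are no independent evidence.

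With each line centred on 41 neighbouring genes the parental count was 7. HOXA2 then differed by 0.39 (adjusted p = 0.122, in a range of 0.00832 to 0.276 over its alternatives), HOXC8 by 0.32 (0.0751, range 0.00172 to 0.0929), HOXC9 by 0.15 (0.189, range 0.012 to 0.189) and HOXD11 by 0.19 (0.13, range 0.0056 to 0.291). In replicates 2 and 3 alone HOXB5, HOXB6 and HOXC9 did not pass. The count also depended on single parental arrays: 5 members passed without replicate 1, 6 without replicate 2 and 5 without replicate 3. HOXC4, HOXB5 and HOXD13 passed in each of these. HOXB6 did not pass without parental replicate 1, HOXB8 and HOXB9 without replicates 2 or 3, and HOXC8 without replicates 1 or 3. Leaving out any single parental array ended the calls of HOXC9 and HOXA2, and leaving out replicate 1 or 2 ended that of HOXD11. The HOXA2 and HOXD11 calls also ended without N4 replicates 2 or 3, N8 replicates 2 or 3, A10 replicate 3, A30 replicate 2 or B21 replicate 2, and that of HOXD11 without A10 replicate 2, A30 replicate 3 or B21 replicate 3.

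**Figure D5:**
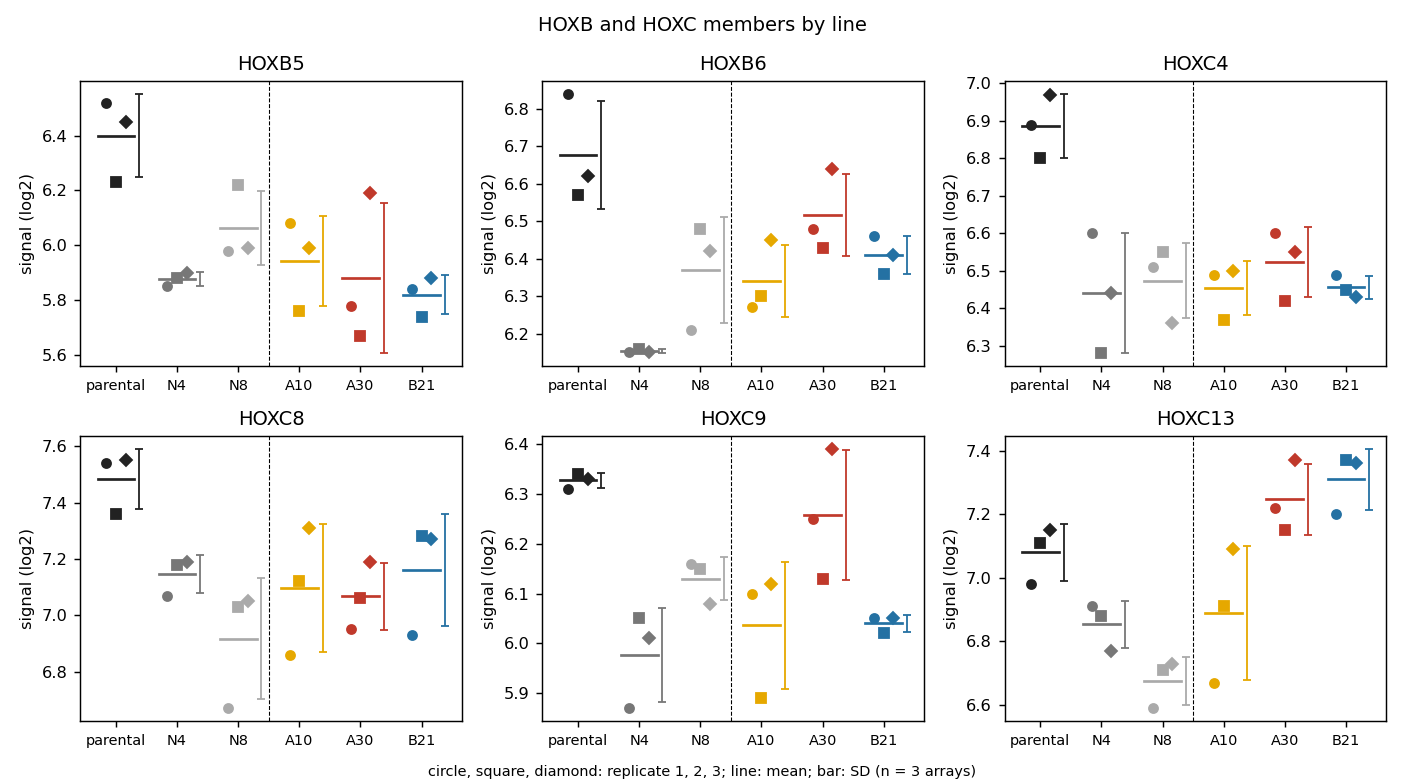
Signal (log2) of HOXB5, HOXB6, HOXC4, HOXC8, HOXC9 and HOXC13 on each array by line, with the line mean as a horizontal line and the SD (n = 3 arrays) as a bar; symbols give the replicate number. The parental arrays lie above all others for HOXB5, HOXC4 and HOXC8, and A30 and B21 have the highest line means for HOXC13.

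Between replicate 1 and replicates 2 and 3, 4 members differed, where 18.6% of all tested genes passed. HOXD11 was higher in replicate 1 by 0.15 ± 0.04 (adjusted p = 0.0149) and HOXD10 by 0.15 ± 0.04 (adjusted p = 0.0259), while HOXC8 was lower by −0.21 ± 0.055 (adjusted p = 0.0155) and HOXB9 by −0.12 ± 0.04 (adjusted p = 0.0307). The count was 2 without replicate 1 of N8 or of B21, where HOXD10 and HOXC8 did not pass. The HOXB9 call ended without any single parental array, N4 replicates 1 or 3, A10 replicates 1 or 3 or A30 replicate 1. Each line holds all 3 replicate numbers.

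Every list of other transcripts and regulators of the HOX system had 0 genotype calls, as 0% of all tested genes were called there. In these lists, counts stand beside the shares of all tested genes, 43.5% for the F test, 29.3% in A30 and 16% in B21. Of 11 further noncoding HOX transcripts with a symbol, HOXB-AS3 and the microRNA gene MIR196B were tested, and neither passed the F test. The others, HOTAIR at 4.04 to 4.63 and HOTTIP at 4.13 to 5.12 among them, did not pass the filter. Of 8 genes listed as HOX cofactors 5 passed the F test, and in A30 2 rose and 3 fell. The 8 included HMX1, a homeobox gene not known as a HOX cofactor, which did not pass the F test (adjusted p = 0.998). MEIS3 rose in A30 by 0.95 ± 0.15 (adjusted p = 0.000152), and MEIS2 and PBX2 fell by 0.47 ± 0.10 and 0.33 ± 0.07 (adjusted p = 0.00262 and 0.00246).

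Of 22 tested Polycomb and trithorax genes, 11 passed the F test. In A30 4 rose and 2 fell, where 12.9% of all tested genes were higher and 16.3% lower. In B21 1 rose and 4 fell, where 8.82% were higher and 7.2% lower. PCGF2, a subunit of Polycomb complex PRC1, fell by 0.33 ± 0.05 in A30 and by 0.26 ± 0.05 in B21 (adjusted p = 0.000217 and 0.0035). SUZ12, a subunit of PRC2, rose by 0.27 in A10 and 0.30 in A30 (adjusted p = 0.0021 and 0.000176) and differed by 0.14 in B21 (adjusted p = 0.0551). EZH2, the methyltransferase of PRC2, had its highest line means in the parental cells (9.33) and A10 (9.27) and ranged from 8.92 to 9.06 in the other lines. Of 5 tested upstream signals of HOX genes 3 passed the F test. GDF11, a secreted factor that activates posterior HOX genes, fell by 0.26 in A10 and 0.47 in A30 (adjusted p = 0.0384 and 0.000169) and differed by −0.21 in B21 (adjusted p = 0.0674). CRABP2, a carrier of retinoic acid, fell by 0.85 in A10 (adjusted p = 0.00235), and DHRS3, which reduces retinal, fell by 0.43 in N8 against the parental cells (adjusted p = 0.0181).

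Of 30 tested homeobox genes outside the clusters, 16 passed the F test. In A30 4 were higher and 6 lower, where 12.9% and 16.3% of all tested genes were, and in B21 2 were higher and 6 lower. DLX2, a forebrain homeobox gene, had line means of 7.56, 7.72 and 7.13 in the parental, N4 and N8 lines and 7.40, 6.91 and 7.10 in A10, A30 and B21. POU3F3 fell in A10, A30 and B21 by 0.30, 0.69 and 0.42 (adjusted p = 0.022, 5.17e-06 and 0.00121). TGIF1 rose in A30 and B21 by 0.32 and 0.66. Of 11 embryonic kidney genes 6 passed the F test, among them OSR1, GATA3 and SIX2. SIX2, a nephron progenitor factor, fell by 0.28 in A30 and 0.24 in B21 (adjusted p = 0.00867 and 0.0377).

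A few markers of other cell states also differed in A30 or B21. The 4 tested epithelial genes of 7 with a symbol had a mean of 7.01 to 7.18 in the wild-type lines and A10, 7.62 in A30 and 7.94 in B21 (log2). In A30 only KRT19 of the 4 passed, with a rise of 1.18, and KRT18, CLDN1 and KRT8 differed by 0.40, 0.30 and 0.12. In B21 KRT19, CLDN1 and KRT18 rose by 1.24, 1.12 and 0.71 and KRT8 differed by 0.23. EPCAM stayed at 3.87 to 4.44 on every array. MAP2, a neuronal gene, fell by 1.01 ± 0.16 in A30 (adjusted p = 0.000185), where DBH and GFAP differed by −0.04 and 0.02, and none of the 3 passed in B21. The 3 tested neural and adrenal genes had a mean of 5.97 to 6.23 in the wild-type lines, 6.0 in A10, 5.75 in A30 and 5.85 in B21. LUM, a stromal matrix gene, rose by 0.70 in B21 and fell by 0.34 in A30 (adjusted p = 0.000275 and 0.0206). The part of these genes in the HOX results was not tested.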

How the data were processed

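Each probe set had 1 deposited value per array, a log2 signal that the authors computed in Affymetrix Expression Console, per the submitters' processing notes; its version, settings and background correction are not known here. They were used as deposited, with a pseudocount of 0. Of 53617 probe sets 16098 carried exactly 1 symbol, matched by gene ID to RefSeq (GRCh38.p14), and the probe set with the highest mean stood for a gene; of the members this concerned HOXD4 alone. Genotype was tested on the means of 3 lines against 3, and all other comparisons on 18 arrays with 1 coefficient per line, using limma 3.58.1 in R 4.3.3, two-sided, with p-values adjusted over all 9686 tested genes. The fits were tested on simulated data.

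Members and lists were chosen with earlier results of these data known. Array values are given in full for HOXD11, HOXA11-AS and the 8 members with the widest range of line means; also named are up to 4 called members per direction of each contrast and up to 3 genes per list by the F test. Members not past the filter were HOXB1 (4.07 to 4.75), HOXC11 (4.74 to 5.39), HOXD1 and HOXD12. HOXC4's RefSeq span covers 39143 bases. Promoters came from RefSeq; protein sequences were not used here. Alternatives covered filter, normalisation, probe sets, variance model, thresholds, neighbour centring, a replicate term, and left-out arrays and lines. Figures were drawn with matplotlib 3.10.9.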

Additional observations from a re-analysis of the deposited data

Results flagged for a closer look

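In 7 HOX members the difference from the wild-type lines was unequal among A10, A30 and B21 by limma's F test, 25.8% of all tested genes being so. The range over the 3 lines was 0.80 for HOXD13, 0.60 for HOXB3 (0.597), 0.57 for HOXD11 (0.567), 0.51 for HOXD10 (0.507), 0.50 for HOXD9, 0.42 for HOXC13 and 0.39 for HOXB9 (0.387), on the log2 scale. The adjusted p ran from 1.34e-05 for HOXD13 to 0.00723 for HOXC13. In HOXB3, A30 lay below the mean of the wild-type lines (−0.38). A10 and B21 differed from that mean by 0.22 and −0.24 and did not pass (limma contrasts, adjusted p = 0.139 and 0.0736). The A10 difference was −0.08 within replicate 1 and 0.37 within replicates 2 and 3.

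Between the CRISPR controls, N8 minus N4 was 0.35 for HOXA10-AS (0.347, adjusted p = 0.018), 0.27 for HOXB7 (adjusted p = 0.0113) and −0.32 for HOXC12 (−0.317, adjusted p = 0.0307).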

How the results depend on the processing

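The genotype count was 0 in every alternative but 1: with arrays as units and the line ignored it was 3 (HOXA2, HOXD13 and HOXB2), and with the line as a random block 0. In A30, HOXD13 passed in all 29 alternatives, between −0.96 and −0.80.
Counts that moved by over 1.5 times were as follows. At an adjusted p under 0.01 they were 11 over the 6 lines, 3 in B21, 1 in N4, 2 in N8, 2 among the wild-type lines, 0 between replicates and 4 in the parental cells. With a 1.5-fold minimum they were 6 over the lines, 1 in A30 (HOXD13), 2 among the KO-labelled lines and 0 in B21, N4, N8, the wild-type lines, the replicates and the parental cells. Without the filter they were 3 in B21, 1 in N4, 3 in N8 and 2 between replicates; at the 60th percentile, 1 in A10 and 6 in the parental cells. Trend and robust estimation gave 1 in A10, neighbour centring 2 in A10, 1 in N4 and 8 in N8, and replicates 2 and 3 alone 2 in A10 and 0 in N4. Without N8, 2 passed among the wild-type lines.
Leaving out 1 array gave 16 to 19 over the lines, 10 to 11 in A30, 3 to 7 in B21, 0 to 2 in A10, 0 to 4 in N4, 3 to 6 in N8, 7 to 9 among the KO-labelled lines, 5 to 9 among the wild-type lines, 2 to 4 between replicates, 5 to 12 in the parental cells and 0 to 0 for genotype.
Replicate numbers were not used as pairs, since not every same-numbered pair of lines correlated above 0.1: all 15 pairs of replicate 1 did, 14 of replicate 2 and 10 of replicate 3, with a median of 0.20 over same-numbered and −0.153 over other pairs. As a hint from the data, same-numbered arrays did deviate together. With the replicate block the counts rose from 0 to 2 in A10, from 6 to 10 in B21 and from 2 to 5 in N4, and stayed at 10 in A30. The cause of these moves was not tested. No result reversed.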
